A study of Mus musculus with 2 samples.

Results

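T cells were the barcodes of pancreatic islet preparations in which transcripts of the T cell receptor complex were found. Barcodes were selected on 6 genes: Cd3d, Cd3e and Cd3g, which encode CD3 chains, and Trac, Trbc1 and Trbc2, the constant segments of the receptor α and β chains. A barcode was kept with UMIs (unique molecular identifiers, each marking 1 captured transcript) of at least 2 of these genes, at least 300 genes in all, at most 20% of UMIs from mitochondrial genes, no UMI of the B cell gene Cd79a, and under 40% of UMIs from the insulin genes Ins1 and Ins2. These choices gave 303 T cell barcodes of 12846 deposited barcodes, 4 in the WT library and 299 in the HFD library. The 4 WT barcodes lacked Cd3d, Cd3e, Trac and both coreceptors, as described with their values, so the results are mainly about the HFD barcodes.

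Both libraries came from islets of male C57/B6 mice aged 16 weeks, sequenced as single cells after dead cells had been removed with a kit. WT mice had no diet named in the labels, and HFD mice had been fed a diet of 60% fat by calories over 10 weeks, starting at week 6. Each library combined the islets of 4 mice, which cannot be told apart within it, and each group held 1 library. No test between diets was therefore possible, and diet, preparation and library cannot be told apart. Every interval below is an exact 95% interval that covers counting error only.

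T cells recognise peptides through the receptor chains α and β, which signal through the CD3 chains γ, δ and ε. CD8 T cells use the coreceptor made of CD8α and CD8β and can kill target cells with granzymes and perforin, while CD4 T cells use CD4 and include helper and regulatory cells. Naive and central memory T cells carry CCR7 and circulate through lymph nodes, and effector cells make chemokines such as CCL5 and cytotoxic proteins. In islets, T cells are best known for their role in autoimmune diabetes.

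In the WT library the 4 T cell barcodes were 0.144% (0.0394 to 0.369) of the 2769 barcodes past the gene and mitochondrial filters. In the HFD library the 299 were 3.91% (3.48 to 4.37) of 7653 barcodes, a ratio of 27.1 (10.4 to 99.9). Since most barcodes were insulin-rich, the share was also taken among barcodes under the insulin maximum. There the WT share was 0.556% of 719 barcodes (0.152 to 1.42), and the HFD share 23.5% of 1271 (21.2 to 26.0). Barcodes under the insulin maximum had a median of 5724 UMIs in WT and 2408 in HFD. Without the T cell barcodes these medians were 5725 and 3181. The part of depth in the shares was not tested. B cell barcodes, those with 2 or more of Cd79a, Cd79b and Ms4a1, numbered 4 in WT and 32 in HFD, a ratio of shares of 2.90 (1.03 to 11.3). Macrophage barcodes, those with 2 or more of C1qa, C1qb, C1qc and Csf1r, numbered 64 in WT and 92 in HFD, a ratio of 0.520 (0.374 to 0.727). The 3 immune classes thus had HFD to WT ratios on both sides of 1.

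**Figure D1:**
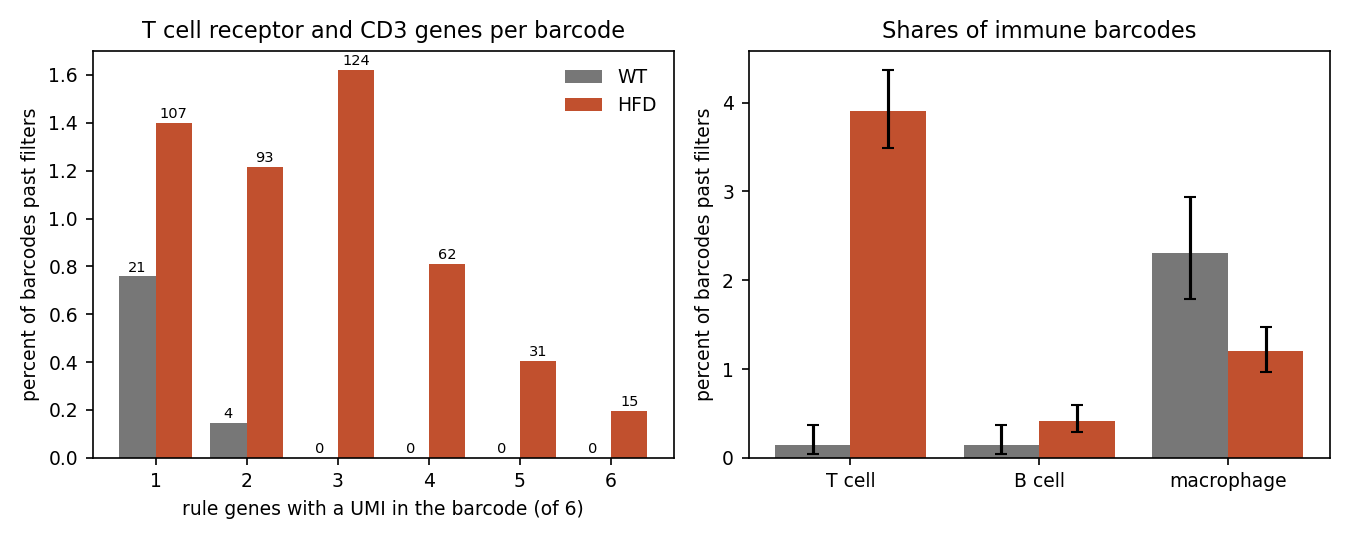
The left panel shows the percent of barcodes past the filters (y axis) by how many of the 6 rule genes had a UMI (x axis), with the number of barcodes above each bar, and the right panel shows the percent of T cell, B cell and macrophage barcodes with exact 95% intervals of counting error. No WT barcode (grey) held more than 2 rule genes, while 124, 62, 31 and 15 HFD barcodes (orange) held 3, 4, 5 and 6.

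The rule had little room on the WT side. In WT, 21 barcodes held 1 rule gene, 4 held 2 and none of the 2769 held 3 or more. In HFD, 107 barcodes held 1 gene, 93 held 2, and 124, 62, 31 and 15 held 3, 4, 5 and 6. Of the 299 HFD T cell barcodes, 82 had the minimum of 2 genes and 217 had more. A minimum of 3 genes would thus leave 0 WT barcodes. The HFD T cell barcode nearest to the gene minimum had 301 genes and the nearest outside it had 289. The highest mitochondrial share inside was 16.95% and the lowest outside was 21.9%. The highest insulin share inside was 34.2%, and 24 HFD barcodes with 2 or more rule genes were left out for insulin alone, starting at 41.6%.

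The HFD T cell barcodes were small. They held 483545 UMIs in all, with a median of 1216 UMIs (525 to 16861) and 506 genes (301 to 2928) per barcode, against a median of 12308 UMIs in the 6358 insulin-rich HFD barcodes. Ribosomal protein genes took a median of 43.4% of UMIs in T cell barcodes and 4.16% in insulin-rich ones. The insulin genes took a median of 2.41% of UMIs (0.580 to 34.2). The libraries shared 9 barcode sequences, 1 of them an HFD T cell barcode.

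The name T cell held in the HFD library. Over its 299 barcodes, Trbc2 had 622 UMIs in 221 barcodes, Cd3d 370 in 206, Trbc1 305 in 128, Cd3g 284 in 172, Trac 199 in 131 and Cd3e 151 in 119. These counts follow from the selection and are given as a description. Trbc1 and Trbc2 are near-identical copies that lie within one cluster on chromosome 6 (mm10, 41538218 to 41539881 and 41546730 to 41548352), so the division of reads between them is uncertain. The 3 CD3 genes are neighbours on chromosome 9, and Cd3g (44969572 to 44980431, minus strand) and Cd3d (44981786 to 44987339, plus strand) start 1355 bases apart in opposite directions. Of the 265 HFD barcodes with a UMI of either of these 2 genes, 113 had both.

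T cell genes that the rule did not use were also present. Of 24 such genes, 296 of 299 HFD barcodes had 1 or more and 244 had 3 or more. Ms4a4b, a membrane protein of T cells, had 246 UMIs in 148 barcodes, Cd2, an adhesion receptor, had 142 in 103, Lat, the adaptor of receptor signalling, had 118 in 87, and Lck, the kinase that starts this signalling, had 91 in 77. In cells thinned at random to 1000 UMIs, which left out the 94 shallower T cell barcodes, Ptprc, the pan-leukocyte phosphatase CD45, had a UMI in 87 of 205 T cell barcodes (42.4%) and in none of 6352 insulin-rich barcodes, a count of 0 that allows up to 0.0472%. Each of the 6 rule genes was found in 0 or 1 of these 6352 barcodes. The insulin-rich set had left out 24 HFD barcodes that met the minimum of rule genes. These low counts therefore follow in part from the selection. Insulin-rich HFD barcodes also had a median of 12308 UMIs before thinning, against 1216 over all HFD T cell barcodes, so thinning removed more of their UMIs. For both reasons the counts cannot show how much free RNA of T cells there was.

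The genes with the largest ratio of T cell barcodes to insulin-rich barcodes, over both libraries, were led by Sh2d2a, an adaptor of T cell signalling, with 87 UMIs against 1. The next were Trbc2, Nkg7, Cd3d, Ly6c2, Cd3g, Cd28 and Cd8a. Cd28 is the costimulatory receptor, and Nkg7 and Ly6c2 mark cytotoxic and memory CD8 cells. This ranking was made on the same barcodes that were selected and has no test. Only 11 of the 299 HFD barcodes had a UMI of any variable segment of the α or β chain, so clones could not be followed.

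The 4 WT barcodes held some T cell genes and lacked others. All 4 had a UMI of Trbc2, and all 4 had 3 or more of the 24 T cell genes outside the rule, among them Il7r, Ets1, Ltb and Gata3, which innate lymphoid cells also express. None had a UMI of Cd3d, Cd3e, Trac, Cd4, Cd8a or Cd8b1, and each held exactly 2 rule genes. The first had 2178 UMIs, with 2 each of Trbc1 and Trbc2, 12 of the early activation gene Cd69, 3 of Rora and 2 of Gata3. Rora and Gata3 encode transcription factors that T cells share with group 2 innate lymphoid cells. The second had 16639 UMIs, of which 5128 were Gcg, the glucagon gene of α cells, with 2 UMIs each of Trbc1 and Trbc2 and 4 of the macrophage gene C1qa. The third had 2793 UMIs, with 1 each of Cd3g and Trbc2 and 17 of Il5, 8 of Il13 and 9 of Rora, the cytokine genes and the regulator that type 2 helper and group 2 innate lymphoid cells use. The fourth had 2684 UMIs, with 6 of Cd3g, 1 of Trbc2, 12 of Trdc (the constant segment of the receptor δ chain), 3 of Cd163l1 and 2 of Il17a, genes of γδ T cells that make interleukin 17. The WT barcodes are called by the rule, since these counts do not settle which of them are αβ T cells.

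Of these genes, the type 2 cytokines and Trdc had few or no UMIs in the HFD barcodes, while Cd69 had 75 UMIs in 58 and Rora 31 in 23. Il5 and Il13 had 0 UMIs in all 299, although 2 HFD barcodes outside the rule held 14 UMIs of Il13. Trdc had 8 UMIs in 5 HFD barcodes, and each of these 5 also had a UMI of Trbc1 or Trbc2. Both are rule genes, found in 128 and 221 of all 299 HFD barcodes, so this follows in part from the selection. Barcodes with 3 or more of Il5, Il13, Gata3, Il1rl1, Il17rb, Rora and Areg were 8 of 2769 WT barcodes and 2 of 7653 HFD barcodes.

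The coreceptor, which the rule did not use, was mostly CD8 where it was seen at all. In HFD, 107 of 299 barcodes (35.8%, 30.4 to 41.5) had a UMI of Cd8a or Cd8b1 and none of Cd4, 10 (3.34%, 1.62 to 6.06) had Cd4 and no CD8 gene, 182 (60.9%) had neither, and 0 had both. Among the 117 barcodes with a coreceptor UMI, 91.5% (84.8 to 95.8) were of the CD8 class. That class could be called on either Cd8a or Cd8b1 and the CD4 class on Cd4 alone. The part of this in the share was not tested. Cd8b1 had 117 UMIs in 86 barcodes, Cd8a 67 in 52 and Cd4 13 in 10. No barcode had more than 6 UMIs of Cd8b1, 3 of Cd8a or 3 of Cd4, and 64 of the 86 barcodes with Cd8b1 and 8 of the 10 with Cd4 had a single UMI of it. Insulin-rich barcodes thinned to 1000 UMIs had Cd8a in 1, Cd8b1 in 0 and Cd4 in 0 of 6352.

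Typing depended on depth. Of the 94 barcodes under 1000 UMIs, 14 were CD8 and 6 were CD4. Of the 155 with 1000 to 2000 UMIs, 64 were CD8 and 0 were CD4. Of the 50 with at least 2000 UMIs, 29 were CD8, 4 were CD4 and 17 still had no coreceptor UMI. The CD8 share of typed barcodes was thus 70.0% (45.7 to 88.1) in the shallow barcodes and 87.9% (71.8 to 96.6) in the deep ones, and all 64 typed barcodes between them were CD8, with a lower bound of 94.4%. At these counts a coreceptor that was not seen in a barcode cannot be called absent.

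**Figure D2:**
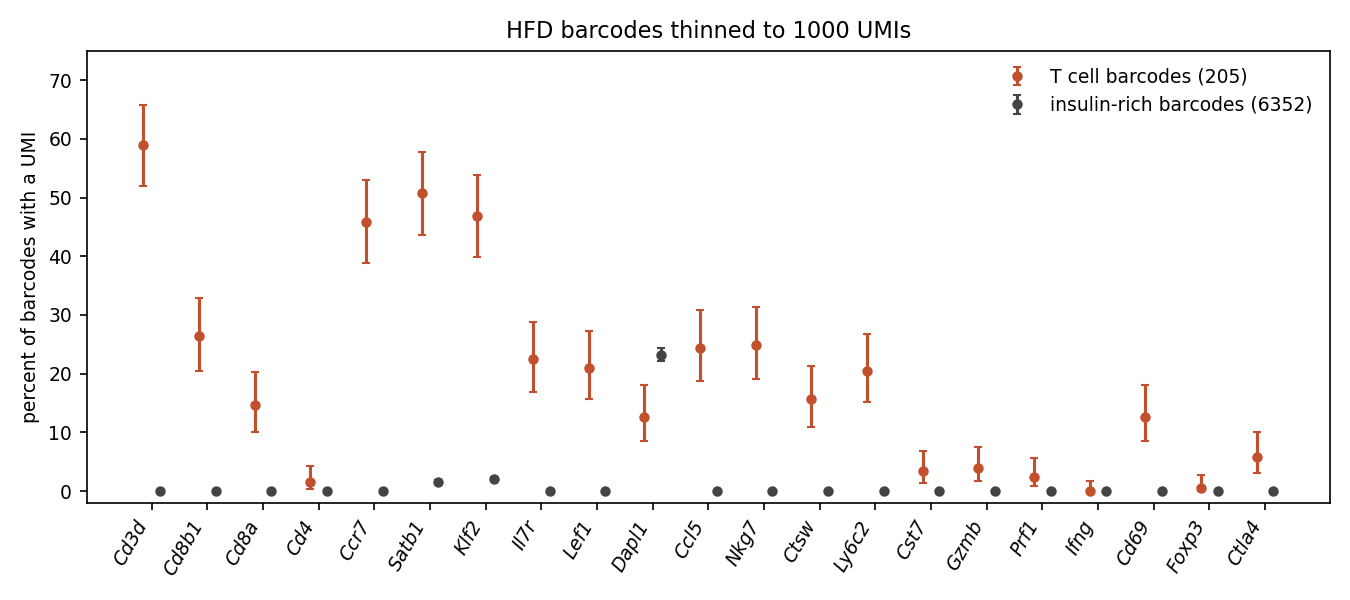
The percent of HFD barcodes with at least 1 UMI of each gene (y axis) is shown for 205 T cell barcodes (orange) and 6352 insulin-rich barcodes (dark grey), all thinned to 1000 UMIs, with exact 95% intervals of counting error. Ccr7, Satb1 and Klf2 were found in 45.9% to 50.7% of T cell barcodes, Gzmb, Prf1 and Ifng in at most 3.90%, and Dapl1 is the gene shown with a larger share in insulin-rich barcodes.

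Among genes of naive and central memory T cells, Satb1, Klf2 and Ccr7 were found in the most barcodes. After thinning, the chromatin organiser gene Satb1 had a UMI in 104 of 205 barcodes (50.7%, 43.7 to 57.8), Klf2, a regulator of T cell trafficking, in 96 (46.8%), and Ccr7, the lymph node homing receptor, in 94 (45.9%, 38.9 to 52.9). The transcription factor gene Lef1 was found in 43 (21.0%) and Tcf7 in 22 (10.7%). Il7r, the interleukin 7 receptor, was found in 46 (22.4%), and S1pr1, the receptor that lets T cells leave tissue, in 23 (11.2%). In insulin-rich barcodes Satb1 was found in 94 of 6352 (1.48%) and Klf2 in 127, and the other 5 of these genes in 0.0315% or less. Without thinning, Ccr7 was found in 164 of 299 barcodes (54.9%) with 322 UMIs, Klf2 in 165 with 333 and Satb1 in 180 with 276. A barcode with Ccr7 held 1 UMI at the median and 15 at most.

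Cytotoxic and effector genes were found in fewer barcodes and in a particular order. After thinning, Nkg7, a protein of cytotoxic granules, had a UMI in 51 of 205 barcodes (24.9%, 19.1 to 31.4), Ccl5 in 50 (24.4%, 18.7 to 30.9) and Ctsw, a protease of cytotoxic cells, in 32 (15.6%). Gzmb, which encodes granzyme B, was found in 8 (3.90%, 1.70 to 7.54), Fasl in 6 (2.93%) and Prf1, which encodes perforin, in 5 (2.44%). Ifng, the interferon γ gene, was found in none of 205, a count of 0 that allows up to 1.46%, and had 1 UMI in all 299 barcodes. Gzma had 3 UMIs, Gzmk 2, and Ccl3 and Cx3cr1 had 0. The chemokine, granule membrane and cathepsin genes were therefore found in larger shares than the granzyme and perforin genes, with intervals that did not overlap.

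Ccl5 was concentrated. Its 382 UMIs lay in 66 of the 299 barcodes, with a median of 5 and a highest value of 15 UMIs among them, and 7 of the 66 had a single UMI. Nkg7 had 141 UMIs in 84 barcodes with a median of 1, and Ccr7 and Klf2 also had a median of 1. No single barcode held more than 3.93% of the Ccl5 UMIs.

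Most barcodes had naive genes with or without effector genes. With each barcode thinned to 1000 UMIs, 187 of 205 (91.2%, 86.5 to 94.7) had a UMI of the 9 naive genes (Ccr7, Lef1, Tcf7, S1pr1, Klf2, Il7r, Satb1, Igfbp4 and Dapl1). Of these, 100 also had a UMI of the 17 effector genes and 87 did not. Another 9 had effector genes only, and 9 had neither. In insulin-rich barcodes at the same depth, 26.1% had a UMI of the naive list, mostly of Dapl1, and 0.220% of the effector list. Without Dapl1 the naive list was found in 184 of 205 T cell barcodes (89.8%, 84.8 to 93.5) and 3.59% of insulin-rich barcodes. At least 2 naive genes were found in 145 T cell barcodes (70.7%) and at least 2 effector genes in 43 (21.0%). Without thinning, the 4 groups in the same order held 149, 138, 5 and 7 of 299 barcodes.

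**Figure D3:**
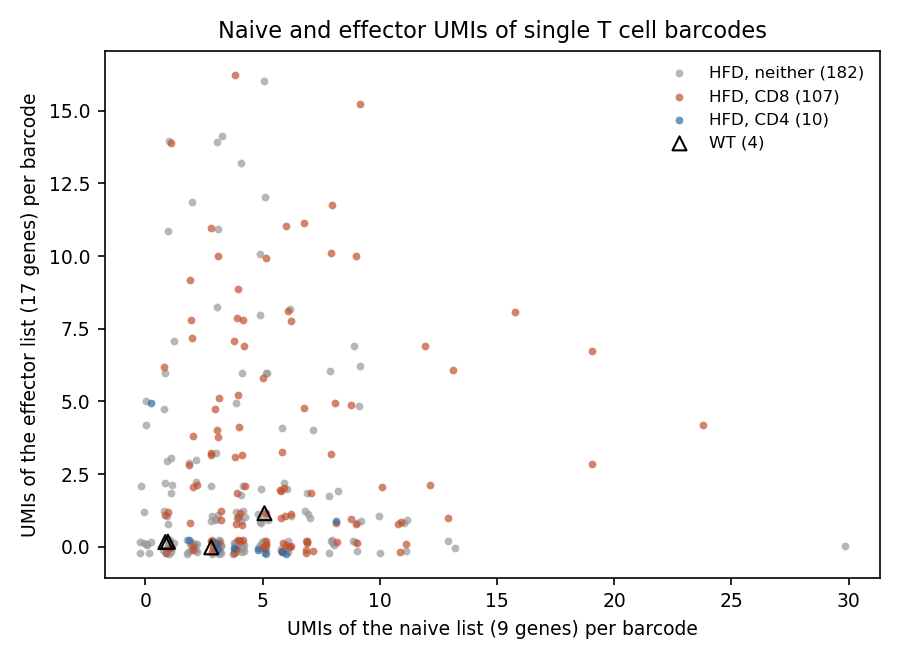
Each point is 1 T cell barcode, with the UMIs of the 9 naive genes on the x axis and of the 17 effector genes on the y axis, not thinned and shifted by a small random amount so that points do not hide each other. Orange points are of the CD8 class, blue of the CD4 class and grey had no coreceptor UMI; the 4 WT barcodes (triangles) all lie at or below 1 effector UMI.

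Barcodes with Ccl5 differed from the rest in several of these genes. After thinning, Ly6c2 had a UMI in 19 of 50 barcodes with Ccl5 (38.0%, 24.7 to 52.8) and in 23 of 155 without (14.8%, 9.65 to 21.4). Lef1 was found in 2 of 50 (4.00%, 0.488 to 13.7) against 41 of 155 (26.5%, 19.7 to 34.1), and Ccr7 in 13 of 50 (26.0%, 14.6 to 40.3) against 81 of 155 (52.3%, 44.1 to 60.3). Tcf7 went the other way, in 11 of 50 (22.0%) against 11 of 155 (7.10%), and Il7r, S1pr1 and Klf2 also had the larger share among barcodes with Ccl5, and the intervals overlapped for each of these 4 genes. Igfbp4 was found in 0 of 50 against 25 of 155 (16.1%, 10.7 to 22.9), and Satb1 (20 of 50 against 84 of 155) and Dapl1 (3 of 50 against 23 of 155) also had the smaller share with Ccl5, with intervals that overlapped. The 9 naive genes were thus split, 5 with the smaller and 4 with the larger share where Ccl5 was found. Nkg7 was found in 16 of 50 (32.0%) against 35 of 155 (22.6%), with intervals that overlapped. The CD8 class took 46.0% and 45.2% of the 2 groups.

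The barcodes were also split by Igfbp4. Igfbp4 encodes a binding protein of insulin-like growth factors and is known from naive T cells, mainly of the CD4 lineage. It had 65 UMIs in 42 HFD barcodes, and none of them had a Ccl5 UMI. After thinning, Lef1 had a UMI in 13 of the 25 barcodes with Igfbp4 (52.0%, 31.3 to 72.2) and in 30 of the 180 without (16.7%, 11.5 to 22.9). Ly6c2 was found in 1 of 25 (4.00%) and 41 of 180 (22.8%), with intervals that overlapped. Ccr7 and Satb1 had the larger share with Igfbp4, and Tcf7 and Il7r the smaller, each opposite to the split by Ccl5. Klf2 and S1pr1 had the larger share and Dapl1 the smaller share in both splits. For each of these 7 genes the intervals of the Igfbp4 split overlapped. Without thinning, Ccr7 (52.4% against 55.25%) and Satb1 (59.5% against 60.3%) had the smaller share with Igfbp4, again with overlap. Ly6c2 was then in 4.76% (0.582 to 16.2) with Igfbp4 and 22.6% (17.6 to 28.2) without, and these intervals did not overlap. The class without a coreceptor UMI made up 22 of the 25 barcodes with Igfbp4 (88.0%) and 86 of the 180 without (47.8%).

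**Figure D4:**
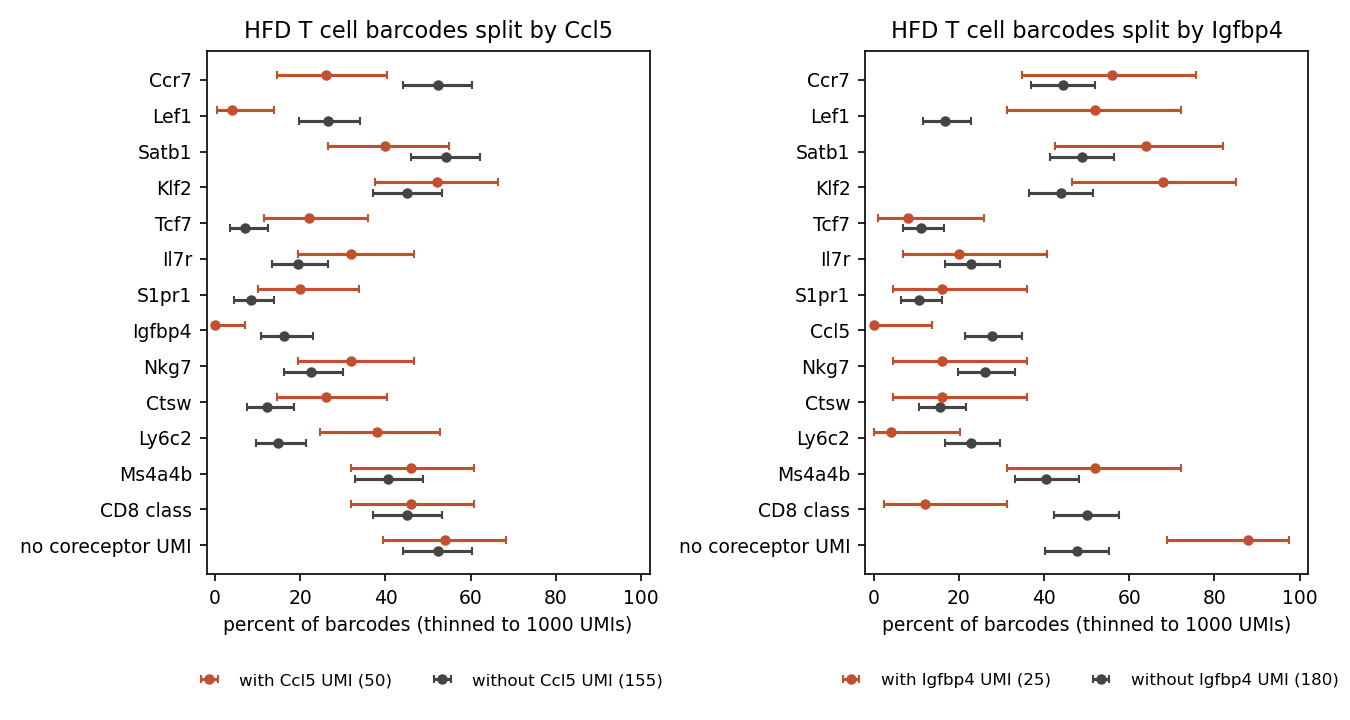
The percent of HFD T cell barcodes with a UMI of each listed gene, or in a coreceptor class, is on the x axis, all thinned to 1000 UMIs, with exact 95% intervals of counting error; orange points are barcodes with Ccl5 (left, 50) or Igfbp4 (right, 25) and dark points are the rest. Lef1 had the smaller share with Ccl5 (4.00% against 26.5%) and the larger share with Igfbp4 (52.0% against 16.7%), and no barcode had both Ccl5 and Igfbp4.

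The coreceptor classes had like levels of Ccr7, Satb1, Cd3d and Ccl5 and differed in other genes, Igfbp4 of the naive list among them. Levels are given as CPM, the UMIs of a gene per 1000000 UMIs outside Ins1 and Ins2, summed over the barcodes of a class. Ccr7 was at 750 CPM (636 to 879) in the 107 CD8 barcodes and 635 CPM (539 to 743) in the 182 with no coreceptor UMI. Satb1 was at 593 and 594 CPM, and Cd3d at 868 and 738 CPM. Ccl5 was at 941 and 779 CPM, a log2 ratio of 0.27 (-0.02 to 0.57), and after thinning it was found in 23 of 93 CD8 barcodes (24.7%) and 27 of 108 with neither coreceptor. These levels did not differ beyond counting error.

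Higher in the CD8 class were Nkg7, at 441 against 201 CPM (log2 ratio 1.13, 0.62 to 1.67), Ly6c2, at 372 against 172 CPM (1.11, 0.55 to 1.69), and Xcl1, a chemokine gene of CD8 and natural killer cells, at 162 against 36.9 CPM (2.13, 1.04 to 3.38). Lower in the CD8 class were Tnfrsf4, the costimulatory receptor OX40, at 29.4 against 312 CPM (log2 ratio -3.40, -4.90 to -2.22), Igfbp4, at 29.4 against 230 CPM (-2.96, -4.47 to -1.75), and Izumo1r, the folate receptor 4 of regulatory and other CD4 cells, at 19.6 against 107 CPM (-2.44, -4.42 to -0.92). These 3 genes are best known from CD4 lineage cells. A UMI of at least 1 of them was found in 62 of 182 barcodes with no coreceptor UMI, 14 of 107 CD8 barcodes and 4 of 10 CD4 barcodes. The interval of each of these 6 ratios left out 0 on the log2 scale. Genes of the cell cycle were higher in the CD8 class too, with Pclaf at a log2 ratio of 3.33 (1.99 to 5.02) and Stmn1 at 1.79 (1.21 to 2.39). Top2a, Rrm2 and Birc5 also left out 0, while the intervals of Mki67 and Tyms held it. Krt8 and Epcam were higher in the CD8 class as well, mostly from 1 barcode that is described further on. Izumo1r and Xcl1 are on none of the state lists and were chosen after their values were seen. The classes also differed in depth, with medians of 1539 and 1072 UMIs. Barcodes were therefore also thinned to 1000 UMIs and typed on the thinned UMIs. At least 2 of 9 cycling genes were then found in 5.63% of CD8 barcodes and 5.34% of those with neither coreceptor. With thinned barcodes typed on all UMIs, these shares were 8.60% and 1.85%. Typed after thinning, Ly6c2 was found in 22.54% and 19.85%, and Nkg7 in 35.2% and 19.1%. Gcg was at 22387 CPM in the class with no coreceptor UMI and 181 CPM in the CD8 class, from few barcodes that are described further on. The part of depth and of Gcg in the class differences was not tested.

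**Figure D5:**
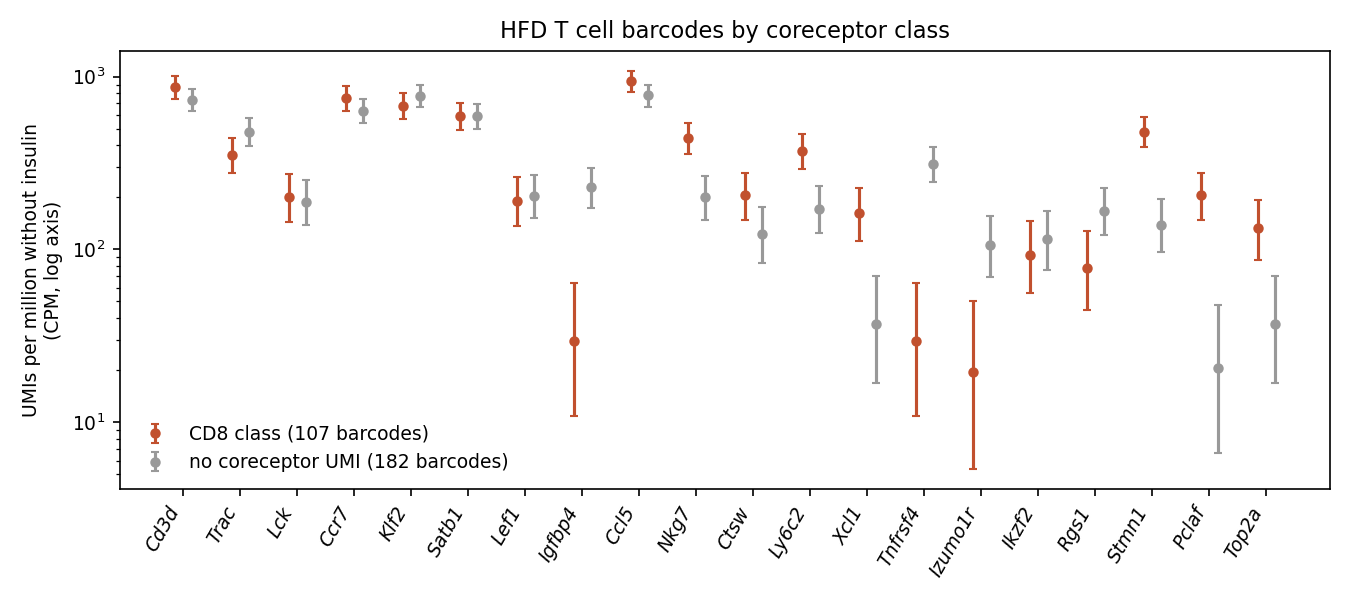
Levels of 20 genes in HFD T cell barcodes of the CD8 class (orange) and with no coreceptor UMI (grey), in CPM on a log axis with exact 95% Poisson intervals. Ccr7, Klf2 and Satb1 lie between 593 and 775 in both classes, while Igfbp4, Tnfrsf4 and Izumo1r lie between 19.6 and 29.4 in the CD8 class and between 107 and 312 in the other.

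Genes of regulatory T cells were present in a small group. Foxp3, the transcription factor gene that defines regulatory T cells, had 1 UMI in each of 6 HFD barcodes, and none of the 6 had a Cd4 or CD8 UMI. Of these 6, 5 had 2 or 3 UMIs of Tnfrsf4, and the other had no Tnfrsf4 and 50 UMIs of Lyz2, a lysozyme gene of myeloid cells. At least 2 of the 7 regulatory genes (Foxp3, Il2ra, Ikzf2, Ctla4, Tnfrsf4, Tnfrsf18 and Icos) were found in 48 of 299 barcodes, of which 15 were CD8, 3 were CD4 and 30 had neither coreceptor. After thinning, 20 of 205 barcodes (9.76%, 6.06 to 14.7) had 2 or more. Tnfrsf18, the receptor GITR, accounted for much of the list, with 110 UMIs in 82 barcodes, and it was at 230 CPM in the CD8 class and 225 CPM in the class with neither. Izumo1r, which is not on the list, was found in 15 of the 48 barcodes (226 CPM, 146 to 334) and in 6 of the other 251 (16.8 CPM, 6.16 to 36.5). The median depth of the 48 barcodes was 1574 UMIs, against 1216 over all 299.

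A few barcodes carried genes of the cell cycle. At least 2 of 9 cycling genes were found in 20 of 299 barcodes (6.69%, 4.13 to 10.1), with a median of 3890 UMIs, and in 13 of 205 after thinning (6.34%, 3.42 to 10.6). Of the 20, 12 were CD8, 4 were CD4 and 4 had neither coreceptor, so 4 of the 10 CD4 barcodes were among them. Stmn1, a microtubule regulator, had 150 UMIs in 39 barcodes, Pclaf, a replication factor, 59 in 14, Top2a, a topoisomerase, 44 in 15 and Mki67, the Ki-67 gene, 15 in 8. In the 20 barcodes Klf2 was at 174 CPM (95.3 to 293), against 823 CPM (735 to 919) in the other 279, and Ccr7 was at 797 CPM (614 to 1018) against 666 CPM (587 to 752). Ccl5 was at 174 CPM (95.3 to 293) against 950 CPM (855 to 1052). Of the 20 barcodes, 11 also had 2 or more regulatory genes, and these 11 had a median of 4331 UMIs. After thinning, 6 of the 13 had 2 or more, against 20 of all 205 barcodes.

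Genes of memory and resident T cells differed in how often they were found. After thinning, Ly6c2 was found in 42 of 205 barcodes (20.5%), Id2, a regulator of effector and memory cells, in 31 (15.1%) and Cd69 in 26 (12.7%), while Cd44, the classical memory marker, was found in 7 (3.41%) against 1.95% of insulin-rich barcodes. Over all 299 barcodes Rgs1 had 60 UMIs in 35 barcodes, Cxcr6, a receptor of resident cells, 9 in 8, Itgae, the integrin CD103, 5 in 5, and Zfp683, the gene of the residency factor Hobit, none. Of the inhibitory receptor genes, Pdcd1 had 7 UMIs in 6 barcodes, Lag3 9 in 5, Tigit 0 and Ctla4 30 in 21, and Tox had 23 UMIs in 19 barcodes. The natural killer genes Ncr1 and Klrb1c and the gene of the innate-like T cell factor Zbtb16 had 0 UMIs, and Klrd1, a receptor chain of cytotoxic cells, had 41 in 39 barcodes. The immediate early gene Junb, which tissue dissociation can induce, was found in 137 of 205 thinned T cell barcodes (66.8%) and in 9.63% of insulin-rich barcodes. Its part in the results was not tested.

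Dapl1, which naive CD8 T cells express, had 108 UMIs in 48 HFD barcodes, 29 of the CD8 class, 0 of the CD4 class and 19 with neither coreceptor. After thinning it was found in 12.7% of T cell barcodes and 23.2% of insulin-rich barcodes, and 29 of its 108 UMIs lay in 1 barcode of 16861 UMIs with 34.2% insulin. Its share over all T cell barcodes was thus below that of the islet cells. The insulin genes took a median of 2.41% of UMIs in the T cell barcodes and 57.3% in the insulin-rich ones. How much of the Dapl1 signal came from islet cell transcripts was not tested. Within the thinned T cell barcodes it was found in 20.4% of the CD8 class and 6.48% of those with neither coreceptor.

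Transcripts of other cell types were found in the HFD T cell barcodes too. Iapp, the amylin gene of β cells, had a UMI in 294 of 299 barcodes, with a median of 5 UMIs among them and 2189 in the barcode with 34.2% insulin. Prss2, a trypsinogen of acinar cells, had 526 UMIs in 228 barcodes, and after thinning it was found in 61.5% of T cell barcodes and 11.6% of insulin-rich barcodes. Gcg had 5502 UMIs in 79 barcodes, but 67 of the 79 had 1 UMI and 1 barcode had 3050. The 3 barcodes with at least 5% of UMIs from hormones other than insulin had 8440, 8944 and 16861 UMIs, and 11 barcodes in all were over 5000 UMIs. Of markers of other immune and stromal cells, Lyz2 had 71 UMIs in 3 barcodes, C1qb 11 in 1 and Dcn 20 in 1, the B cell genes Cd79b and Ms4a1 and the endothelial genes Cdh5 and Kdr had 0, and Ighm had 39 UMIs in 36 barcodes. A CD8 class barcode of 5863 UMIs had 1 UMI of Trbc1, 2 of Trbc2 and no CD3 UMI. It held 73 of the 105 Krt8 UMIs, 28 of the 41 of Epcam and all 12 of Krt19, genes of ductal and other epithelial cells. An alternative left out the 5 HFD barcodes with 2 or more UMIs of 10 genes of other types. These genes were Ms4a1, Cd79b, C1qa, C1qb, C1qc, Csf1r, Pecam1, Cdh5, Col1a2 and Col3a1. Lyz2, Ighm and the epithelial genes were not among them, so the barcode rich in Krt8 was kept. With this filter 294 barcodes remained and the CD8 share of typed barcodes was 91.4%.

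Levels in HFD and WT were compared last, because the WT side held 24294 UMIs of 4 barcodes and 16639 of them were from the glucagon-rich barcode. Of 4538 genes with at least 10 UMIs over both sets, 353 were at least 2-fold higher in HFD (7.78%) and 794 at least 2-fold lower (17.5%), with a median log2 ratio of -0.35. Of the 9 naive genes, 4 were at least 2-fold higher and 0 lower, but 5 of the 8 with a value had 0 UMIs in WT. Such a gene passed the count filter through HFD alone and could take a value in that direction only, so no direction of the list is read from these counts. Ccr7 had 322 UMIs in HFD and 0 in WT, 2.47 higher on the log2 scale, with a lower bound of 2.16. Klf2 had 333 and 0, 2.52 higher, with a lower bound of 2.21. Both values were taken against a floor of 3 WT UMIs. Of the effector genes, 2 of 7 tested were at least 2-fold higher and 0 lower, and 3 of the 4 with a value had 0 UMIs in WT. Ccl5 had 382 and 0 UMIs, 2.72 higher on the log2 scale against the same floor, with a lower bound of 2.41. The effector genes with 0 WT UMIs also passed the filter through HFD alone, so no direction of that list is read either. The highest-ranked genes also included Ins1, Ins2 and the trypsinogen genes Try4 and Try5, which are not T cell genes, and Cd74 with 268 UMIs in 10 HFD barcodes, 126 of them in 1 barcode.

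Genes lower in HFD than in WT included Trdc, Cxcr6 and Rora, and the counts do not settle the cell type of the WT barcodes that held them. Trdc had 12 UMIs in WT and 8 in HFD (log2 ratio -4.86, -6.36 to -3.45), Cxcr6 7 and 9 (-3.91, -5.51 to -2.25) and Rora 17 and 31 (-3.41, -4.31 to -2.46). Il5 had 17 and 0, a log2 ratio of -6.78 against a floor of 3 HFD UMIs, with an upper bound of -6.32. Il5 passed the count filter through WT alone and could take a value in that direction only, so no direction is read from it. All 17 Il5 UMIs lay in 1 WT barcode and all 12 Trdc UMIs in another, while Cxcr6 was found in 3 of the 4 WT barcodes and Rora in all 4. The ranked naming rule, which asked for a UMI in 5 barcodes, could name no gene on this side. With TMM scaling, which shifted every log2 ratio by 1.01, 1132 genes were at least 2-fold higher in HFD and 244 lower. Without the glucagon-rich WT barcode and the 3 hormone-rich HFD barcodes, 68 were higher and 996 lower. The counts of genes on each side thus moved with the scaling and with the barcodes kept, and the cause was not tested.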

How the data were processed

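Single-cell RNA libraries of islets from 1 WT and 1 HFD pool were analysed. The authors deposited UMI counts for each gene in each barcode, and the submitters' processing notes name Cell Ranger 3.0.2 and mm10. The WT library held 73843674 UMIs over 3895 barcodes and the HFD library 94375138 over 8951. The members, gene lists and comparisons were chosen with earlier results of these data known. Counts were summed over the selected barcodes and given as CPM, with exact Poisson, Clopper-Pearson and conditional 95% intervals (scipy 1.17.1), which cover counting error only. Ratios needed 10 UMIs over both libraries, and 0 UMIs were set to a floor of 3. Shares of barcodes with a UMI were taken after thinning to 1000 UMIs without replacement. Insulin-rich barcodes (40% or more of UMIs from Ins1 and Ins2, and fewer rule genes than the T cell rule asked for) gave the background. No doublet caller was run, and barcodes with genes of other cell types were left out in alternatives instead. Named genes were those of 25 lists, up to 10 with the largest HFD to WT ratios in each direction (none met the rule as lower in HFD) and the 20 with the largest ratio to insulin-rich barcodes. Some genes are not reported here and were left out of the lists. The splits by Ccl5 and Igfbp4 were chosen after values were seen. TMM and DESeq2 size factors came from edgeR 4.0.16 and DESeq2 1.42.0. The scripts were tested on simulated data. Positions are from the GENCODE annotation of mm10.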

Additional observations from a re-analysis of the deposited data

How the results depend on the processing

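Of 96 alternative values, 67 stayed near the reported value (counts within 1.5 times, shares within their interval, list medians within the spread of their genes), and the cause of the other changes was not tested. With at least 500 genes per barcode, 156 HFD T cell barcodes were left (2.14%). With at most 15000 UMIs the HFD share was 5.59%, the median log2 ratio of the effector genes, 0.80 as first computed and over 4 genes of which 3 had 0 UMIs in WT, was -0.16 and 66 genes were at least 2-fold higher in HFD. With at least 3 rule genes, 0 WT barcodes (0%) were left, the HFD share was 2.83% and no ratio could be taken. Without barcodes holding genes of other cell types the effector median was -0.21 with 67 genes higher, and without those rich in other hormones, an alternative added after seeing the data, -0.11 with 68. TMM scaling gave 1.77 for the effector genes, with 1132 genes higher and 244 lower, and DESeq2 scaling 1.76, 1089 and 280. A minimum of 20 UMIs left 345 genes lower, and 1 UMI in each library gave 2078 lower and an effector median of 0.25. With cells weighted equally, 624 genes were higher. Thinning to 500 UMIs gave 26.4% of barcodes with Ccr7, 8.03% with Cd8b1 and 16.1% with Ccl5, and thinning to 2000 UMIs gave 60.0%, 34.0% and 36.0%, and Ccr7 was in 54.9% without thinning. No paired analysis was possible because each group held 1 library, and no replicate was left out for the same reason. Depth limited the coreceptor calls, with 94 of 299 HFD T cell barcodes under 1000 UMIs.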
